A study of Danio rerio with 12 samples.

Results

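The cytosolic ribosomal protein genes encode the proteins of the large and the small ribosomal subunit. They were taken from the deposited table by symbol (rpl or rps, a number and at most a short letter suffix, plus rplp0, rplp1, rplp2, rplp2l and rpsa), which gave 77 of the 24782 genes listed, 45 of the large and 32 of the small subunit. The ribosome reads the mRNA with its small subunit and joins amino acids with its large subunit, and most of its proteins are present once in each particle. Cells therefore make them in matched amounts, and their mRNAs share a tract of pyrimidines at the 5′ end (TOP mRNAs) through which growth signals set their translation together. In a heart the transcripts come from heart muscle, from connective tissue and vessel cells and from the blood left in it.

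Polyadenylated RNA of whole zebrafish (Danio rerio) hearts was sequenced 7 days after surgery in fish of 6 to 12 months. The 4 groups had 3 libraries each: yap -/- hearts (mutant) after cryoinjury, in which a probe cooled in liquid nitrogen kills part of the ventricle; yap -/- hearts after a sham operation, in which the ventricle was exposed and not touched; and yap +/+ hearts (wild type) after cryoinjury and after the sham operation. Yap, the product of yap1, co-activates transcription and is held back by the Hippo kinases. The design asks what injury does to gene expression in each genotype and how the genotypes differ in each state. The labels name neither separate animals nor pooled hearts, so the p-values cover the spread among these libraries alone.

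Expression was given as FPKM, which is scaled to transcript length and to the number of mapped fragments. The number of reads was not given, and the steps between low values put the depth of the libraries at 0.813 to 1.35 of that of wild-type sham 1. yap1 was at 10.1 to 14.4 FPKM in mutant and 18.8 to 29.8 FPKM in wild-type hearts, without overlap. All 10 cardiomyocyte markers looked for had a mean of 1 FPKM or more. In whole hearts, a change in the number of cells of a type and a change in RNA per cell cannot be told apart. The share of summed FPKM taken by 15 globin genes, which reflects blood, was between 3.84% and 30.7% and varied most among wild-type sham hearts.

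All 77 genes were expressed. Their mean over the 12 libraries exceeded 1000 FPKM for 72 of them, and 57 were among the 100 genes with the highest mean. The highest means in the large subunit were those of rpl26 (3416 FPKM), rpl35 (3234 FPKM), rpl7a (3202 FPKM) and rpl14 (2945 FPKM). Rpl26 and Rpl35 line the mouth of the tunnel through which the new protein leaves. The highest means in the small subunit were those of rps25 (3025 FPKM), rps27a (3021 FPKM), rps2 (2958 FPKM) and rpsa (2929 FPKM). Rps27a is made as a fusion with ubiquitin, which is cut off, and Rpsa is also known as the laminin receptor. The median of the gene means was 1882 FPKM in the large and 1932 FPKM in the small subunit, and 45 and 31 genes of the subunits had means over 500 FPKM. Low means were those of rpl31 (505 FPKM), rpl38 (962 FPKM) and rplp2l (1219 FPKM) in the large subunit and rps26 (735 FPKM) and rps23 (991 FPKM) in the small one.

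The 77 genes together took 20.3%, 32% and 18.4% of the summed FPKM in the mutant cryoinjury libraries 1, 2 and 3, and 38.8%, 18.2% and 19.2% in the mutant sham libraries 1, 2 and 3. In wild type they took 19.3%, 14.9% and 16.6% after cryoinjury and 18.7%, 18.2% and 13.3% after sham. Mutant sham 1 and mutant cryoinjury 2 stood far above the rest, and the other 10 libraries lay between 13.3% and 20.3%. The share averaged 23.6% ± 7.39 in mutant cryoinjury, 25.4% ± 11.6 in mutant sham, 16.9% ± 2.25 in wild-type cryoinjury and 16.7% ± 3.00 in wild-type sham hearts (SD, n = 3 each). A share over chosen genes was given no test. The difference of the genotype means was 7.67 percentage points. The SD of single libraries, pooled over the 4 groups, was 7.14 points, which is not the error of a difference of means. Without mutant sham 1 and mutant cryoinjury 2 the difference was 2.2 points.

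Globin transcripts are part of the sum and were then left out of it. On that basis the share was 24.3%, 36.5% and 20.9% in mutant cryoinjury libraries 1, 2 and 3 and 40.5%, 21.4% and 21.9% in mutant sham libraries 1, 2 and 3. It was 18.4% to 21.2% in wild-type cryoinjured hearts, and the 3 wild-type sham libraries came to 19.5%, 19.3% and 19.2%, a mean of 19.3% ± 0.147 (SD, n = 3). The 4 mutant libraries other than the 2 highest, at 20.9% to 24.3%, overlapped the wild-type cryoinjured hearts and lay above every wild-type sham heart.

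**Figure D1:**
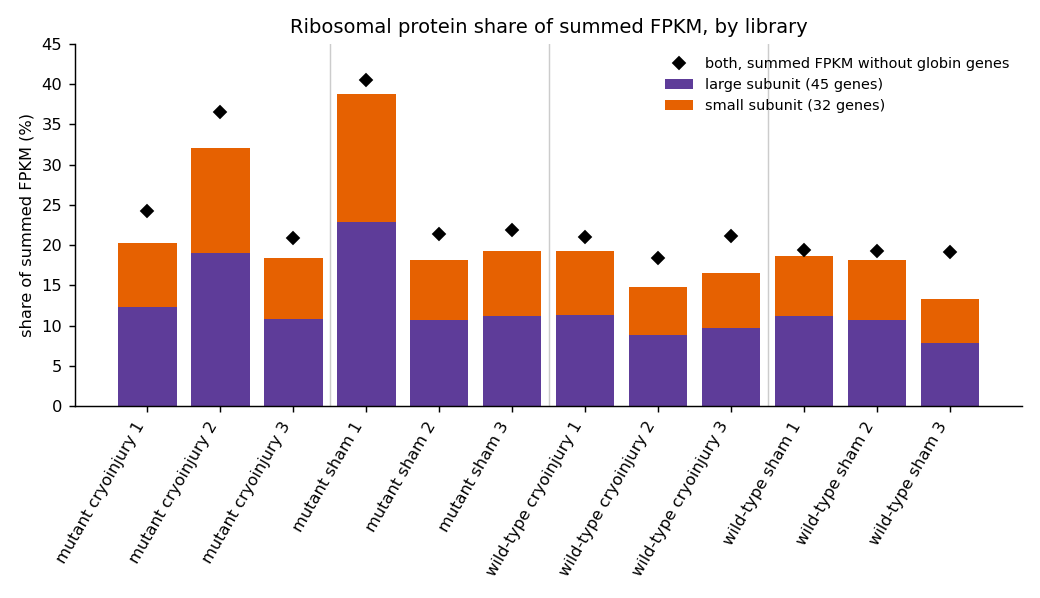
Share of the summed FPKM taken by the 45 large-subunit and 32 small-subunit genes (stacked bars, %) in each of the 12 libraries, with diamonds for both together when globin genes are left out of the sum. Mutant sham 1 (38.8%) and mutant cryoinjury 2 (32%) exceed the other 10 libraries, and the diamonds of the 3 wild-type sham libraries lie within 19.2% to 19.5%.

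Large and small subunit kept a narrow ratio. The summed FPKM of the large subunit was 1.53, 1.45 and 1.44 times that of the small subunit in mutant cryoinjury, 1.43, 1.44 and 1.42 times in mutant sham, 1.41, 1.45 and 1.43 times in wild-type cryoinjury and 1.49, 1.42 and 1.43 times in wild-type sham libraries 1, 2 and 3. Mutant sham 1 and mutant cryoinjury 2, with the highest shares, lay inside this range. Mutant cryoinjury 1 had the highest ratio and wild-type sham 1 the next. The mean difference in this ratio was 0.012 between mutant and wild type and 0.015 between cryoinjury and sham. The SD of single libraries, pooled over the 4 groups, was 0.032.

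Seen gene by gene, the high level of the list in mutant sham 1 and mutant cryoinjury 2 ran through nearly all its members. In mutant sham 1, 76 of the 77 genes were above every wild-type library, as were 12.3% of the 13969 genes tested, and the median member stood at 2.68 times its wild-type sham mean. In mutant cryoinjury 2, 76 of 77 were above every wild-type library, against 16.9% of all tested genes, with a median of 2.17 times the wild-type sham mean. Among the members above every wild-type library, the lowest in both was rplp2, at 1.44 and 1.23 times its wild-type sham mean.

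In the other mutant libraries the medians were close to the wild-type sham mean. They were 1.2 times that mean in mutant cryoinjury 1, 1.08 in mutant cryoinjury 3, 1.07 in mutant sham 2 and 1.15 in mutant sham 3. The genes above every wild-type library numbered 47 (all tested genes 25.5%) in mutant cryoinjury 1, 22 (11.8%) in mutant cryoinjury 3, 18 (36.6%) in mutant sham 2 and 50 (13.6%) in mutant sham 3. Mutant sham 2 was therefore below the background of its own library. Mutant sham 1 was the highest of the 12 libraries for 74 of the 77 genes.

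**Figure D2:**
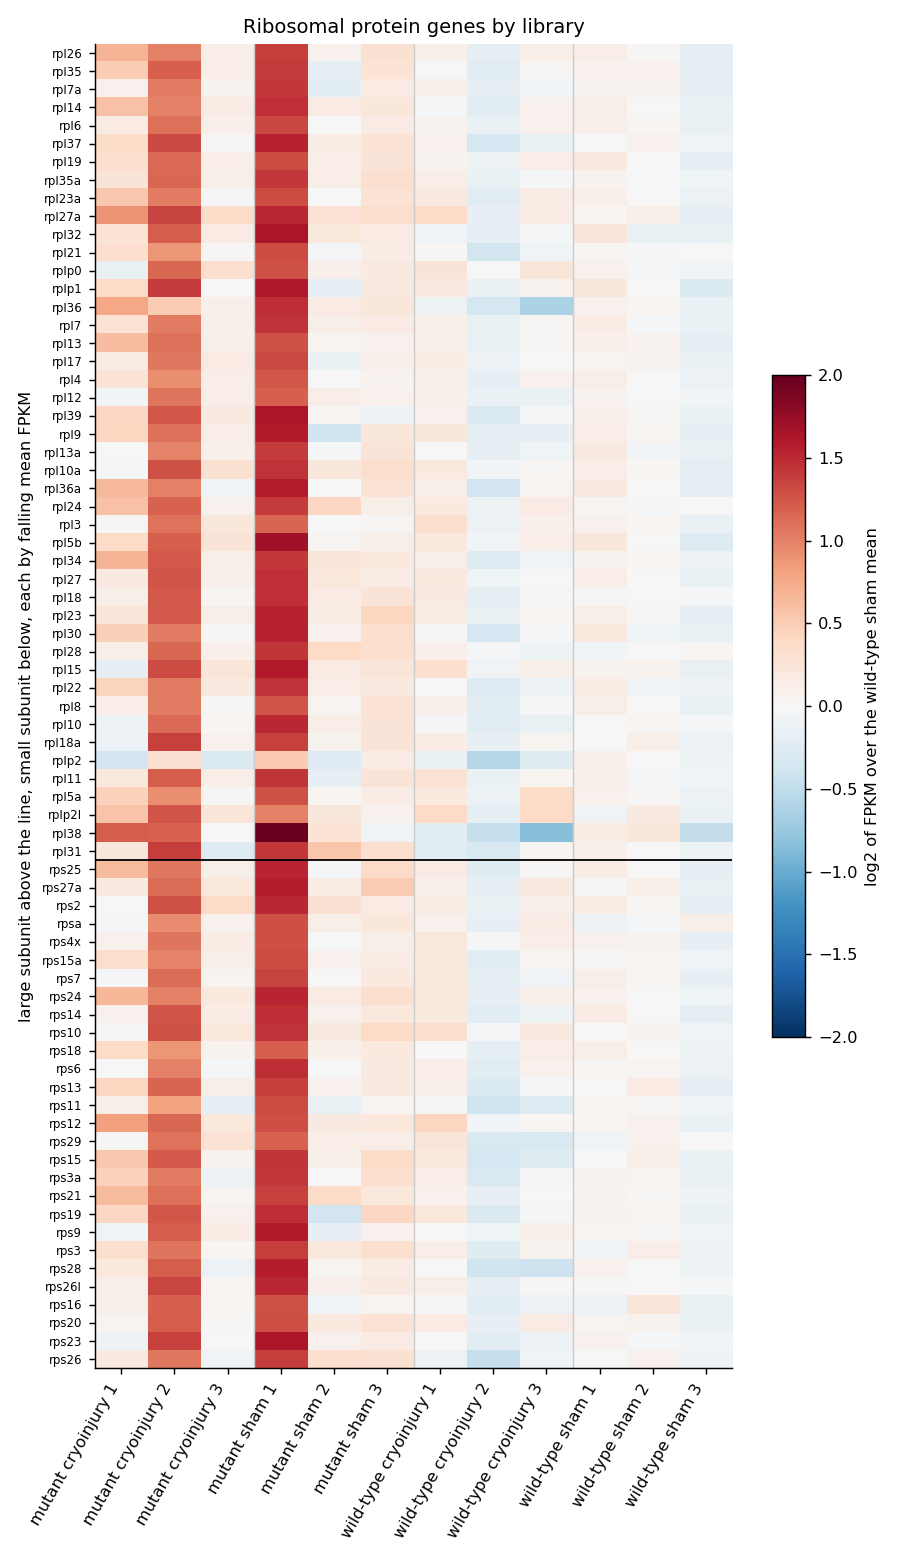
Log2 of each gene's FPKM over its wild-type sham mean (color) for 73 of the 77 genes (rows, large subunit above the black line) in 12 libraries (columns). The columns of mutant sham 1 and mutant cryoinjury 2 are raised throughout (medians 2.68-fold and 2.17-fold).

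The level of the list's members in single libraries shows the same split. Rps6, the small-subunit protein that S6 kinase phosphorylates, had 1738, 3482 and 1687 FPKM in mutant cryoinjury, 4869, 1729 and 1965 FPKM in mutant sham, 1904, 1511 and 1843 FPKM in wild-type cryoinjury and 1806, 1815 and 1600.3 FPKM in wild-type sham libraries. Its 4 other mutant libraries overlapped wild type. Rpsa had 2337, 4609 and 2537 FPKM in mutant cryoinjury, 5848, 2577 and 2794 FPKM in mutant sham, 2520.3, 2136 and 2646 FPKM in wild-type cryoinjury and 2215, 2353 and 2578 FPKM in wild-type sham libraries, again with overlap outside the 2 libraries. Rplp0 and Rplp1, which anchor and form the stalk, had log2 differences between mutant and wild type of 0.40 and 0.55 (adjusted p 0.601 and 0.563, limma). Rpl11, which joins Rpl5 and the 5S RNA and in mammals binds Mdm2 when ribosome assembly stalls, reached 2367 FPKM in mutant cryoinjury 2, 2751 FPKM in mutant sham 1 and lay at 916 to 1251 FPKM in the other 10 libraries. The same pattern held for rps19, with 3225 FPKM in mutant sham 1, 2744 FPKM in mutant cryoinjury 2 and 887 to 1547 FPKM elsewhere. Rps14 had 5314 FPKM in mutant sham 1, 4574 FPKM in mutant cryoinjury 2 and 1643 to 2214 FPKM elsewhere. The human counterparts of both genes are mutated or lost in anemias. The pattern also held for rpl10 (3363 and 2594 FPKM against 1022 to 1407 FPKM), which joins the large subunit late in its assembly. It held too for rpl39 (4722 and 3617 FPKM against 1253 to 2033 FPKM), a short protein of the exit tunnel. For rpl10 and rpl39 the higher of the 2 libraries is given first.

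No member was called in any of the 7 contrasts by limma with Benjamini-Hochberg adjustment over all 13969 tested genes at 0.05. Of all tested genes, 0% were called in cryoinjury against sham in either genotype, in mutant against wild type in either state and in the difference of the injury responses, 0.00716% in mutant against wild type over both injuries and 0.0644% in cryoinjury against sham over both genotypes. The lowest adjusted p among the members was 0.166. Changes of 2-fold were called for 34.2% of genes in simulated data of this size, in cryoinjury against sham in wild type over 13969 genes, and changes of 4-fold for 80%. The simulation drew changed genes at random from genes above a level higher than the filter of the test, with genes varying independently. It thus gave no rate for members, for lower genes or for the other contrasts. In that contrast the members had a median SE of 0.371 (log2), against 0.278 for all tested genes. The fit pooled the spread over the 4 groups, so this SE was the same in each contrast of 2 groups. It takes in mutant sham 1 and mutant cryoinjury 2. A library's median member FPKM had an SD of 135 in wild type and 1021 in mutants (n = 6 each). A 2-fold difference in a member could thus be missed by this fit.

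Between genotypes, 76 of the 77 genes had a higher mean log2(FPKM + 1) in the mutants in sham hearts and in cryoinjured hearts. The median log2 difference of mutant minus wild type was 0.59 in sham hearts, 0.51 in cryoinjured hearts and 0.56 over both, and that of all tested genes was 0.07, -0.11 and -0.03. The subunits had medians of 0.58 (large) and 0.59 (small) in sham hearts and of 0.51 and 0.52 in cryoinjured hearts. These medians rested on the 2 libraries with the highest shares: the median in sham hearts was 0.15 with mutant sham 1 left out, that in cryoinjured hearts 0.20 with mutant cryoinjury 2 left out, and without both that over both injuries was 0.18. At an unadjusted p under 0.05, 27 of the 77 genes were higher in mutants over both injuries, against 4.6% of all tested genes, and the count was 12 without both libraries. It was 6 without mutant cryoinjury 2 or without wild-type cryoinjury 2, 43 without mutant cryoinjury 3 or without mutant sham 3, 11 without mutant sham 1, 59 without mutant sham 2, and 14, 16, 13 and 9 without wild-type cryoinjury 3, sham 1, sham 2 and sham 3. Only without mutant cryoinjury 1 or wild-type cryoinjury 1 did it stay within 1.5 times the count of 27. The share of all tested genes was taken with all libraries only, so the counts with libraries left out have no background of their own.

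All 3 mutant libraries lay above all 3 wild-type libraries for 29 of the 77 genes in sham hearts (all tested genes 7.01%) and for 21 in cryoinjured hearts (3.06%). Over both injuries, all 6 mutant libraries lay above all 6 wild-type libraries for 4 genes (0.243%), which were rpl14, rpl28, rpl34 and rpl36, all of the large subunit.

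Rpl36 had 3110.1, 2582 and 1957 FPKM in mutant cryoinjury, 5039, 2030.1 and 2116 FPKM in mutant sham, 1689, 1431 and 1173 FPKM in wild-type cryoinjury and 1937, 1867 and 1649.8 FPKM in wild-type sham libraries. Its mutant minimum and its wild-type maximum were nearly equal (1957 and 1937 FPKM). It averaged 2806 ± 1177 FPKM in mutant and 1624 ± 284 FPKM in wild-type hearts (SD, n = 6 each). The log2 difference was 0.72 ± 0.24 (SE) with an adjusted p of 0.425 (limma), and 0.50 without the 2 libraries. Rpl14 ranged from 2510.2 over a median of 3036 to 6247 FPKM in mutant and from 1949 over 2242 to 2469 FPKM in wild-type hearts, with a log2 difference of 0.63 ± 0.25. Rpl34 ranged from 1426 over 1831 to 3511 FPKM in mutant and from 1106 over 1296 to 1421 FPKM in wild-type hearts, with a log2 difference of 0.68 ± 0.25. For both genes the groups were separated by a narrow gap. Rpl28, a large-subunit protein that budding yeast lacks, ranged from 1368 over 1633 to 3432 FPKM in mutant and from 1186 over 1251 to 1360.4 FPKM in wild-type hearts, a log2 difference of 0.60 ± 0.24. The adjusted p was 0.465 for rpl14, 0.438 for rpl34 and 0.481 for rpl28 (limma), so these 4 genes were no call.

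Rpl38, a small large-subunit protein that mouse embryos need to translate Hox mRNAs, had the largest log2 difference between genotypes. It had 1581, 1549.6 and 691 FPKM in mutant cryoinjury, 2707, 833 and 649.7 FPKM in mutant sham, 594, 500.4 and 381 FPKM in wild-type cryoinjury and 759, 805 and 492 FPKM in wild-type sham libraries. In cryoinjured hearts the genotypes did not overlap, and in sham hearts they did. The log2 difference was 1.30 ± 0.50 in cryoinjured hearts (adjusted p 0.873) and 1.03 ± 0.35 over both injuries (adjusted p 0.425, limma). Without mutant sham 1 and mutant cryoinjury 2 it was 0.62 over both. Rpl38 and rpl36 were the only members with an unadjusted p under 0.05 in cryoinjured hearts (all tested genes 1.22%). In sham hearts no member reached that, where 565 of the 13969 tested genes were higher and 272 lower in mutants. Rpl28 and rps27a were among the 3 members with the lowest unadjusted p there, with log2 differences of 0.72 and 0.75 (adjusted p 0.797 each, limma).

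Injury left the list near its sham level in both genotypes. The median log2 difference of cryoinjury minus sham was -0.01 in wild type, where that of all tested genes was 0.19, and -0.07 in mutants, where it was 0.01. Of the 77 genes, 34 were higher and 43 lower after cryoinjury in wild type, and 19 higher and 58 lower in mutants. Leaving out mutant sham 1 gave a median of 0.35 in mutants, leaving out mutant cryoinjury 2 one of -0.37, so its sign depended on these libraries. In wild type it ranged from -0.26 to 0.09 over the alternatives tried, and it was on either side of 0. The difference of the 2 injury responses had a median of -0.06, and no member passed the test for it. The lowest unadjusted p there was 0.461, for rpl38 (limma).

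At an unadjusted p under 0.05, 1 member was lower after cryoinjury in wild type, in mutants and over both genotypes, where 0.816%, 1.12% and 1.46% of all tested genes were lower. As 1.3% of the list, this was near the background of lower genes each time. No other member reached that limit in these 3 contrasts, and none was called. No member was thus higher at that limit, where 1097, 278 and 1151 of the 13969 tested genes were.

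In wild type, rplp2 was among the 2 members whose cryoinjured hearts all lay below the sham hearts. These 2 were 2.6% of the list, less than the 3.44% of all tested genes. Rplp2 and its copy rplp2l encode acidic proteins of the stalk, which with Rplp0 and Rplp1 recruits the translation GTPases. Rplp2 had 1075, 1724 and 1141 FPKM in mutant cryoinjury, 2025, 1168 and 1559 FPKM in mutant sham, 1274, 941 and 1187 FPKM in wild-type cryoinjury and 1499, 1395 and 1309.9 FPKM in wild-type sham libraries. The log2 difference of cryoinjury minus sham was -0.31 ± 0.27 in wild type (adjusted p 0.718, limma). Rplp2l had 1369, 2216 and 1100.1 FPKM in mutant cryoinjury, 1863, 1081 and 983 FPKM in mutant sham, 1206, 812 and 1215 FPKM in wild-type cryoinjury and 884, 1052 and 843 FPKM in wild-type sham libraries. Neither gene was separated by injury over both genotypes.

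The ratio of rplp2l to rplp2 was higher after injury. It was 1.27, 1.29 and 0.964 in mutant cryoinjury and 0.920, 0.926 and 0.630 in mutant sham libraries. In wild type it was 0.946, 0.862 and 1.02 after cryoinjury and 0.590, 0.754 and 0.644 after sham. Within each genotype every cryoinjured heart lay above every sham heart. Over both genotypes the log2 ratio rose by 0.52 after cryoinjury, with 0.51 in wild type and 0.52 in mutants. An exact two-sided permutation of injury within genotype gave p = 0.005, the smallest value its 400 arrangements allow. After Benjamini-Hochberg adjustment over the 8 tests made on 4 paralog pairs it was 0.04. These tests were added after the values were seen. With mutant sham 1 and mutant cryoinjury 2 left out the log2 difference was 0.53 (exact permutation p 0.0167, adjusted 0.04). Without mutant cryoinjury 1 (log2 difference 0.48) or without mutant sham 3 (0.43) the adjusted p was 0.06, and without mutant cryoinjury 2 (0.48) or without wild-type cryoinjury 3 (0.49) it was 0.08. Between genotypes the log2 ratio differed by 0.30 (exact permutation p 0.045, adjusted 0.09).

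No other pair passed the adjusted threshold in the main setting. The ratio of rps26l to rps26, a protein at the exit of the mRNA channel, averaged 1.78 ± 0.211 in mutant cryoinjury, 1.56 ± 0.201 in mutant sham, 1.90 ± 0.10 in wild-type cryoinjury and 1.64 ± 0.0764 in wild-type sham hearts (SD, n = 3 each). Its log2 difference of cryoinjury minus sham was 0.20 (exact permutation p 0.025, adjusted 0.09). The ratio of rpl5a to rpl5b, which encode the partner of Rpl11, averaged 0.702 ± 0.0900 in mutant cryoinjury, 0.711 ± 0.111 in mutant sham, 0.806 ± 0.0903 in wild-type cryoinjury and 0.780 ± 0.0741 in wild-type sham hearts. It differed by a log2 of 0.02 with injury (exact permutation p 0.875) and of -0.17 with genotype (exact permutation p 0.12, adjusted 0.16). How reads of near-identical copies were divided is not given in the sources used here.

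**Figure D3:**
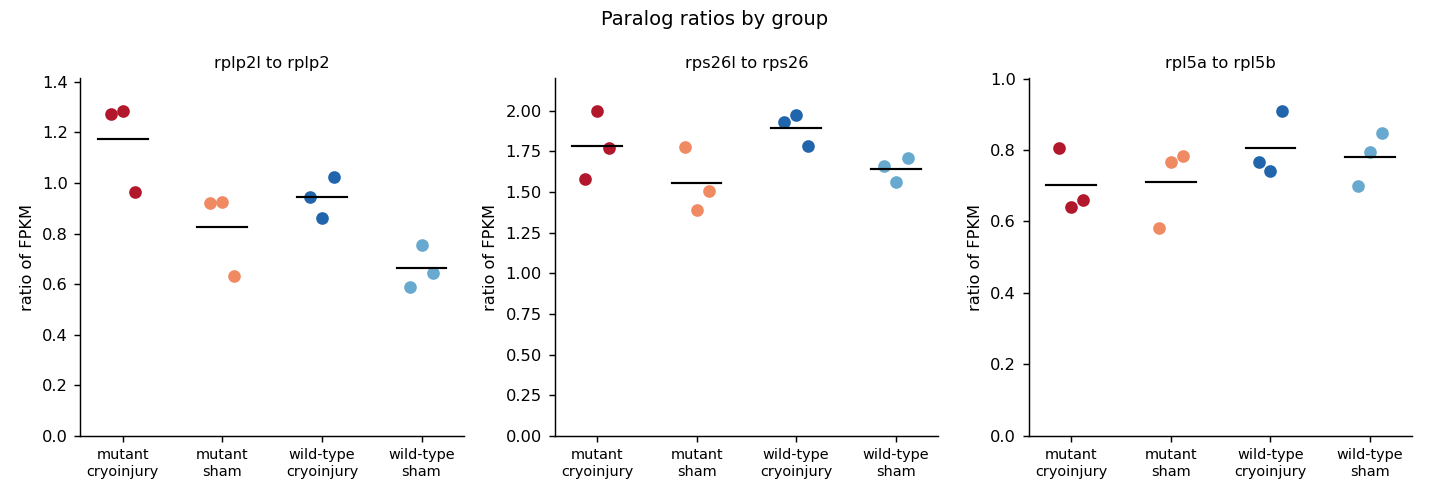
Ratio of FPKM within each of 3 paralog pairs (vertical axes from 0), with a point per library and a line at the mean of each group of 3. For rplp2l to rplp2 the cryoinjured libraries lie above the sham libraries of the same genotype.

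The members were also compared after the mean log2(FPKM + 1) of all 77 was subtracted in each library, which removes their common movement. The SD of a member over the 12 libraries then had a median of 0.124 (log2), against 0.508 before, and 76 of the 77 genes varied less on the relative scale. Rpl35a and rpl7 followed the common movement most closely, with SDs of 0.041 and 0.043. Large relative SDs were those of rpl38 (0.465), rplp2 (0.305) and rpl36 (0.299). No member was called on this scale in any of the 7 contrasts (all tested genes 0% in each, limma). At an unadjusted p under 0.05, rpl38 was higher in mutants in cryoinjured hearts (log2 difference 0.78, all tested genes 0.0716%) and over both injuries (0.49, all tested genes 0.2%). Rplp2 was among the 2 members lower in mutants over both injuries at that limit (log2 difference -0.37), as were 16.2% of all tested genes. The members' mean was higher in mutants, so its subtraction shifted every gene down in mutants relative to wild type. The percentages of all tested genes on this scale carry that shift and are no background for a member.

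**Figure D4:**
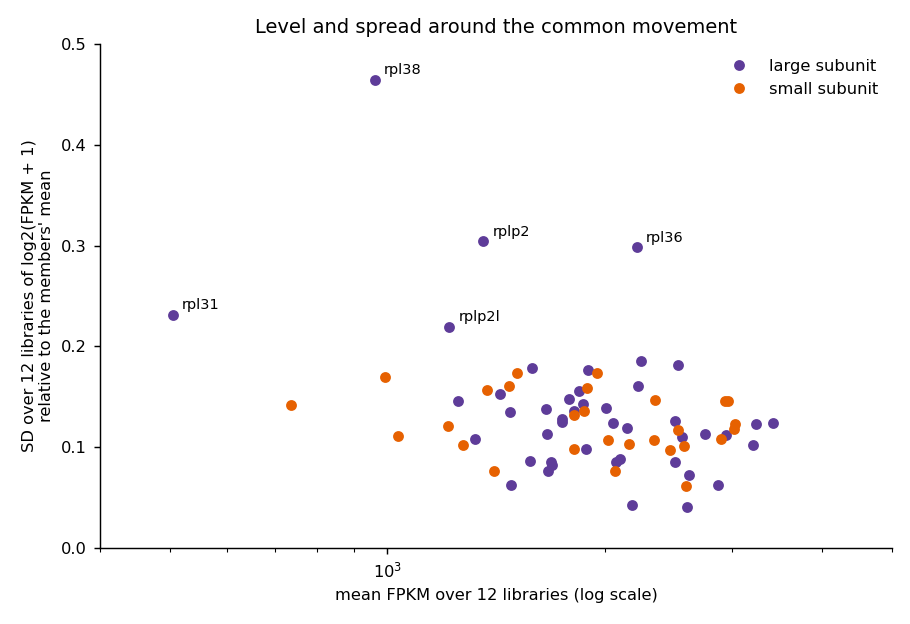
Mean FPKM of 73 members over 12 libraries (horizontal, log scale) against the SD of its log2(FPKM + 1) relative to the members' mean (vertical), colored by subunit. Of the 73 genes drawn, 68 lie under an SD of 0.2, and rpl38 lies highest at 0.465.

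The library whose composition departed most from the common pattern was mutant cryoinjury 1, with an SD of 0.271 (log2) over the 77 members, where the other libraries had 0.0963 to 0.245. Relative to their own mean over the libraries, rpl38 (0.93), rpl36 (0.57), rpl27a (0.45) and rps12 (0.43) were high in it, and rpl15 (-0.50) and rplp0 (-0.45) were low. Its relative depth, 0.813, was the lowest. Wild-type cryoinjury 3 had rpl38 (-0.83) and rpl36 (-0.55) low. In mutant cryoinjury 2 rpl36 was low (-0.50), and in mutant sham 1 rpl38 was high (0.59) and rplp2 low (-0.53). The part of depth in these departures was not tested.

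The rest of the translation machinery was described in the same libraries. Among 7 genes of ribosomal proteins outside the symbol rule and associated genes, median differences from the wild-type sham mean were 1.39 (log2) in mutant sham 1 and 1.04 in mutant cryoinjury 2, with -0.14 to 0.50 in the other 10 libraries. Among 24 elongation factors and other TOP mRNAs the medians were 1.35 and 0.92 in the 2 libraries, with -0.16 to 0.21 in the rest. The elongation factor subunit gene eef1db ranged from 248 to 848 FPKM in mutant and from 177 to 298 FPKM in wild-type hearts. Among 61 ribosome biogenesis genes the medians were 0.74 and 0.32, with -0.058 to 0.44 in the other 10 libraries. Among 32 initiation factors they were 0.46 and 0.27, with -0.068 to 0.28 in the other 10. In both of these lists mutant cryoinjury 2 thus lay inside the range of the other 10. The largest log2 difference between genotypes among those named was that of mych, a Myc family gene, at 8.53 to 30.7 FPKM in mutant and 3.37 to 16.1 FPKM in wild-type hearts (1.27 ± 0.29, adjusted p 0.239, limma). No gene of these 4 lists was called in mutant against wild type over both injuries. At an unadjusted p under 0.05, 4 of 7 genes outside the symbol rule and 5 of 24 elongation factors and other TOP mRNAs were higher in mutants. So were 16 of 61 biogenesis genes and 3 of 32 initiation factors. None in the 4 lists was lower, and 4.6% of all tested genes were higher. Of the 4 lists, the initiation factors, with 3 genes, came nearest to that background.

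The 74 genes of mitochondrial ribosomal proteins were, by their median, raised in neither of the 2 libraries. Their median difference from the wild-type sham mean was -0.28 in mutant sham 1 and -0.52 in mutant cryoinjury 2, with -0.31 to 0.12 in the other 10 libraries. That of all tested genes was -0.25 in mutant sham 1 and 0.02 in mutant cryoinjury 2. In mutant sham 1 the mitochondrial genes were therefore near the background of the library. The share of summed FPKM of the 74 genes was 0.357% and 0.290% in the 2 libraries, against 0.360% to 0.488% in the others. The high share of the cytosolic members in these 2 libraries alone lowers all other shares there. Over both injuries 23 had a higher and 51 a lower mean in mutants, with a median log2 difference of -0.11, where the cytosolic members had 0.56. At an unadjusted p under 0.05, 2 of them were higher and 3 lower in mutants, near the 4.6% higher and 5.06% lower among all tested genes.

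**Figure D5:**
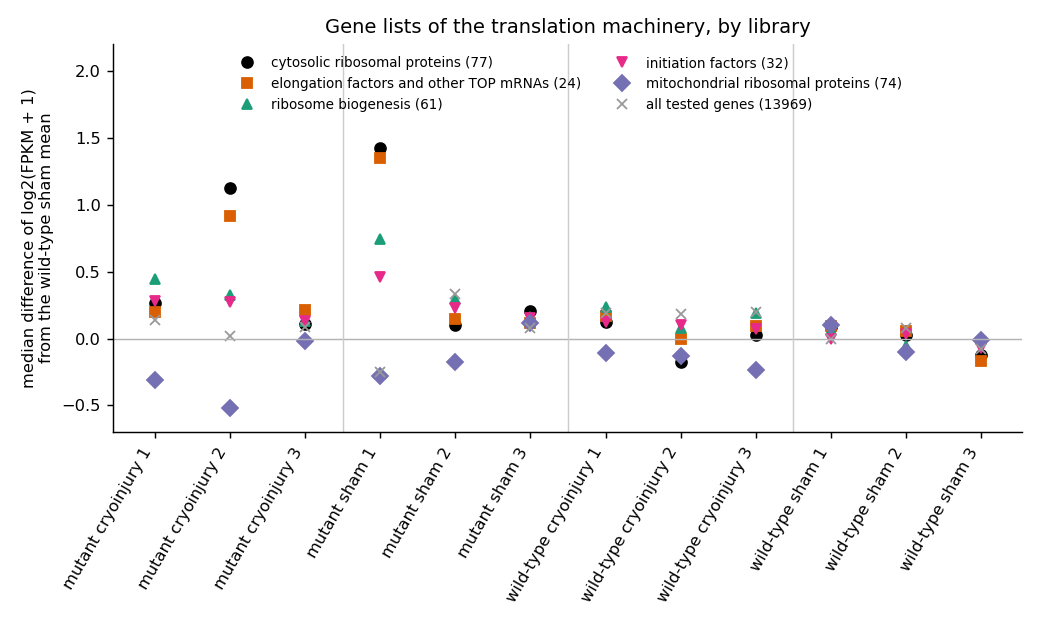
Median difference of log2(FPKM + 1) from the wild-type sham mean for 6 gene lists (symbols, with the number of genes) in 12 libraries. In mutant sham 1 and mutant cryoinjury 2 the cytosolic ribosomal proteins are at 1.42 and 1.12. The elongation factors and other TOP mRNAs are at 1.35 and 0.92, and the mitochondrial ribosomal proteins lie below 0.

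Markers of some cell types were also described in the 2 libraries, and they did not all move alike in both. Of the summed FPKM, the 10 cardiomyocyte markers made up 5.88% in mutant sham 1 and 5.06% in mutant cryoinjury 2. Both were less than in any of the other 10 libraries (6.59% to 12.1%). The ribosomal protein genes are part of that sum, at 38.8% in mutant sham 1 and 32% in mutant cryoinjury 2. Their high share alone lowers all other shares there, those of the markers included. Marker shares of the sum without these genes were not calculated. By group the 10 cardiomyocyte markers took 5.06% to 9.48% in mutant cryoinjury and 5.88% to 8.34% in mutant sham hearts. In wild type they took 7.07% to 9.85% after cryoinjury and 8.51% to 12.1% after sham. None of them was at 0 in every library. In mutant sham 1, 6 of the 10 were below every wild-type sham heart (all tested genes 49.4%) and 2 above (19.6%). In mutant cryoinjury 2, 6 were below every wild-type cryoinjured heart (all tested genes 49.5%) and 1 above (20.3%), so these counts are near the background of both libraries. The 7 smooth muscle markers took 0.0373% in mutant sham 1 and 0.0506% in mutant cryoinjury 2, less than in the other 10 libraries (0.0682% to 0.284%). Of the 7, 6 and 5 were below every wild-type heart of the same operation (all tested genes 49.4% and 49.5%). By group the 7 markers took 0.0506% to 0.125% in mutant cryoinjury, 0.0373% to 0.0841% in mutant sham, 0.145% to 0.284% in wild-type cryoinjury and 0.0688% to 0.104% in wild-type sham hearts. The 7 skin and gill markers took 0.0859% in mutant sham 1 and 0.106% in mutant cryoinjury 2, more than in the other 10 libraries (0.0117% to 0.0647%). In mutant sham 1, 1 of the 7 was above every wild-type sham heart (all tested genes 19.6%). In mutant cryoinjury 2, 3 were above every wild-type cryoinjured heart (all tested genes 20.3%). The 5 tested ones had a median log2 difference from the wild-type sham mean of -0.015 in mutant sham 1 and 1.59 in mutant cryoinjury 2. The higher share in mutant sham 1 was thus not a rise of the median marker. By group the 7 markers took 0.0484% to 0.106% in mutant cryoinjury, 0.0504% to 0.0859% in mutant sham, 0.0272% to 0.0647% in wild-type cryoinjury and 0.0117% to 0.0294% in wild-type sham hearts. No marker of these lists was at 0 in every library. Of 14 macrophage markers, 9 were below every wild-type sham heart in mutant sham 1 (all tested genes 49.4%). In mutant cryoinjury 2, 10 of the 14 were above every wild-type cryoinjured heart (all tested genes 20.3%). Against the same backgrounds, 8 of 10 fibroblast and matrix markers were below every wild-type sham heart in mutant sham 1 and 2 above. In mutant cryoinjury 2, 3 of the 10 were below every wild-type cryoinjured heart and 1 above. Of 8 neutrophil markers, 5 were below and 1 above in mutant sham 1. In mutant cryoinjury 2, 7 of the 8 were above and 0 below. Mutant sham 1 listed 5138 genes at 0, the most of any library, and the other libraries 3145 to 4347. The part of cell composition and of library quality in the ribosomal protein levels was not tested.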

How the data were processed

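RNA of 12 zebrafish heart samples in 4 groups of 3 libraries was sequenced. The authors deposited 1 table of FPKM per gene. HISAT and Bowtie2 with the genome build GRCz11 are named, per the submitters' processing notes. Neither versions nor the program behind the FPKM values is named in the sources used here. Of its value columns, 13 were matched to samples and 1 was left unused, which held the values of wild-type cryoinjury 3 in all 24782 genes. The name of the mutant cryoinjury 1 column ends in a suffix unlike the others', and what it marks is not known. The 2 columns of mutant sham 3 differed by a median log2 of 0.00303 over the 77 genes; their mean counted as 1 sample. No read depth was stated, and the relative depth comes from steps between low FPKM values (71 of 78 column pairs lay within 0.03 log2 of 1 joint solution).

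Genes with a mean of 1 FPKM or more over the 12 libraries were tested (13969 genes, all 77 members among them) as log2(FPKM + 1) with limma 3.58.1 in R 4.3.3, with 4 group means over 12 samples, a trend of variance on level and p-values adjusted at 0.05 by Benjamini-Hochberg. The pseudocount of 1 understates the change of low genes. The fit was repeated relative to the members' mean. Injury and genotype effects on 4 paralog ratios, paired by symbol alone, were tested with exact two-sided permutations; these tests were added after the values were seen. Shares and ratios over the list got no test. In 10 simulations of the wild-type cryoinjury contrast with 13969 genes, 34.2% of genes changed 2-fold and 80% of those changed 4-fold were called, and 0.0675% of unchanged genes.

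Named genes were the most and least abundant members of each subunit, the 5 with the largest relative SD, the 3 with the lowest p in each contrast, the paralogs and members chosen for their role, and up to 4 of each other list. Genes beyond these were named after their values were seen. The members and lists were chosen with earlier results of these data known. The alternatives were other pseudocounts, filters, scalings, weights, a replicate block and leaving out libraries. A few members and 1 related gene are not reported here or drawn in the plots of single genes; they stay in the counts, medians and tests.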

Additional observations from a re-analysis of the deposited data

How the results depend on the processing

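No member was called in any contrast under any alternative except for a count of 1 in cryoinjury against sham over both genotypes with median-of-ratios rescaling, quantile normalization or array weights, and a count of 1 in wild type with array weights. Of 417 alternative values of 17 differences of named members, 413 kept their direction and side of the threshold, none reversed, and the 4 exceptions were these calls. The difference of cryoinjury minus sham in the log2 ratio of rplp2l to rplp2 ranged from 0.43 to 0.58 as each library was left out. In 4 of these it lost the adjusted threshold. The same difference for rps26l to rps26 ranged from 0.157 to 0.250. It stayed short of the adjusted threshold in 13 of 15 alternatives and passed it in the rest. For rpl5a to rpl5b the difference of cryoinjury minus sham in log2 ratio ranged from -0.051 to 0.056. It was -0.020 without mutant sham 1 and mutant cryoinjury 2. The cause was not tested. The count of 27 members higher in mutants at an unadjusted p under 0.05 was 4 with median-of-ratios rescaling, 14 with no filter, 17 with quantile normalization and 12 without both libraries, and ranged from 6 to 59 as each library was left out. The share of all tested genes was not taken under the alternatives for this count. The alternatives for paralog ratios and for this count were added after seeing the data. Median-of-ratios and quantile scaling moved the median log2 difference of all genes by -0.20 and -0.22 for injury in wild type, and by 0.11 and 0.10 for genotype in cryoinjured hearts; the members' median difference between genotypes over both injuries stayed positive, between 0.18 and 0.67. With a replicate block, 0 members were called in every contrast and no call changed. Deviations from the group mean correlated at -0.205 to 0.326 between same-numbered libraries (18 pairs, median -0.023). Between differently numbered libraries they correlated at -0.312 to 0.368 (36 pairs, median -0.006). The numbers thus showed no pairing, and with 3 libraries per group this check cannot exclude one. Array weights on the relative scale could not be fitted. The unknown read depth leaves no interval for counting error.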

Other observations

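Rpl22l1 encodes a relative of the large-subunit protein Rpl22 and falls outside the symbol rule. It was looked at after its values were seen and was given no test. The ratio of rpl22l1 to rpl22 in FPKM was 0.270, 0.228 and 0.271 in mutant cryoinjury, 0.211, 0.20 and 0.185 in mutant sham, 0.359, 0.264 and 0.332 in wild-type cryoinjury and 0.188, 0.242 and 0.216 in wild-type sham libraries 1, 2 and 3. Within each genotype the cryoinjured libraries lay above the sham libraries.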
